A study of Mus musculus with 4 samples.

Results

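The 4 mouse Hox clusters were examined as 4 windows of genome build mm9. They are HoxA at chr6:52100000-52270000 (170 kb), HoxB at chr11:96050000-96240000 (190 kb), HoxC at chr15:102745000-102875000 (130 kb) and HoxD at chr2:74485000-74610000 (125 kb). The members were the CCGG positions inside these windows, and no measured value was used to choose them. HoxA held 431 of them, HoxB 409, HoxC 324 and HoxD 375. Together they made up 1539 of the 1594137 CCGG positions in the files. CCGG positions lay close together in the clusters, from 2.15 per kb in HoxB to 3 per kb in HoxD, against 0.617 per kb over the chromosomes.

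The DNA came from MC1-ZE7, a mouse embryonic stem cell line of strain MC1 (129S6/SvEvTac) at passage 31, grown without feeder cells in medium with leukemia inhibitory factor. The line carries a reporter in which the fluorescent protein Emerald is driven by the promoter of Zscan4c, a gene of the early embryo that is active at any one time in a small fraction of embryonic stem cells. Emerald-high cells are the brightly fluorescent fraction of a sort by flow cytometry, and Emerald-negative cells are the fraction without fluorescence. Both carry the reporter, and the question was how methylation in cells with Zscan4 activity compares with that in cells without it. For HELP tagging, an assay of DNA methylation, DNA of each fraction was cut with HpaII, which needs an unmethylated CG inside CCGG, or with MspI, which cuts whether or not that CG is methylated. Each fraction and enzyme had 1 library, with 5662614 HpaII and 9372711 MspI tags from Emerald-high cells, against 9535691 HpaII and 9307616 MspI tags from Emerald-negative cells. No spread between cultures or sorts was therefore measured, and tests and 95% intervals below compare these libraries, not the conditions. The intervals cover counting error only, and tags carry no molecular identifiers. These are genomic DNA libraries without expression values, so the cell identity given in the labels was not checked against marker genes.

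Hox genes encode homeodomain transcription factors that set regional identity along the body axis. Their order on the chromosome follows the order in which they are switched on along the head to tail axis, with low-numbered paralogs acting anteriorly and high-numbered ones posteriorly. In embryonic stem cells the clusters are known to be largely silent, to lie under Polycomb repression rather than DNA methylation, and to be rich in CpG islands, stretches of dense CG that are usually unmethylated.

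The level of HpaII cutting was expressed as a score, 100 times 2/π times the arctangent of the HpaII/MspI ratio of tags scaled to each library's total. A score of 0 means no HpaII tag, 50 means equal scaled HpaII and MspI tags, and higher scores mean more HpaII cutting relative to MspI, which goes with less methylation. The score is a level relative to the library average, not a percentage of unmethylated copies. Differences between fractions were taken as the log2 HpaII/MspI ratio of the Emerald-high fraction minus that of the Emerald-negative one.

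The DNA behind these scores differs in how many CCGG it offers to the enzymes. Promoter sequences from RefSeq (build GRCm38.p6) were placed on the mm9 positions of the files by matching the spacing of their CCGG, and the 250 bases before the transcription start are shown for 4 of them, 5′ to 3′ on the gene's own strand, in lower case with each CCGG in capitals. Hoxd10 and Hoxa13 are the Hox promoters with most CCGG among those placed in HoxD and HoxA. Hoxb3os, a noncoding antisense gene named after Hoxb3, stands for HoxB, where no Hox gene promoter could be placed. Hoxd12 is shown as the promoter with the most MspI tags. None could be placed in HoxC.
Hoxd10 (plus strand): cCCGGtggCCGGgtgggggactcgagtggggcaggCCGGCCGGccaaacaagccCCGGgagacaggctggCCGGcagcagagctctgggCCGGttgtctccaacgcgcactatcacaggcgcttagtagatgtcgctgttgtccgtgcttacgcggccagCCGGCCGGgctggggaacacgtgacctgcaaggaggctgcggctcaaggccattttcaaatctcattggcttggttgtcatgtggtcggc
Hoxd12 (plus strand): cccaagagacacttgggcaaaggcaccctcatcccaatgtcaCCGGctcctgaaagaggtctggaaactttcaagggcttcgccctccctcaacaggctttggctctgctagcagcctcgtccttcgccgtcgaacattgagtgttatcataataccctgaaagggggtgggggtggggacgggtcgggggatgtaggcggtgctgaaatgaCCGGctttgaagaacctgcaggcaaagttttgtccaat
Hoxa13 (minus strand): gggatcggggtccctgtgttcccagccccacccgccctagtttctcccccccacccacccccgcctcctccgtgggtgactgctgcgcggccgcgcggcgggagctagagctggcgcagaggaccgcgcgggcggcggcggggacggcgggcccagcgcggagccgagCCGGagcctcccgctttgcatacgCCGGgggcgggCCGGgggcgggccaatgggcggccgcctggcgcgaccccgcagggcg
Hoxb3os (minus strand): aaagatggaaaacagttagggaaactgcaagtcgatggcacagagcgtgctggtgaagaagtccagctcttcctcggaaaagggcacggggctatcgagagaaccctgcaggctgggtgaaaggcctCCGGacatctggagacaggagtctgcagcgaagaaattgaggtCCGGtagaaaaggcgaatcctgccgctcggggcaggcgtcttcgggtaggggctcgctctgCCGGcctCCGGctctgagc
The Hoxd10 stretch holds 9 CCGG in 250 bases at 65.6% G+C, Hoxd12 holds 2 at 55.6%, Hoxa13 holds 3 at 80% and Hoxb3os holds 4 at 59.2%. Their tag counts are given with the other promoters further on.

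The Hox clusters were strongly cut by HpaII in both fractions. HoxA had 4925 HpaII and 2837 MspI tags in Emerald-high DNA, against 10831 HpaII and 2408 MspI tags in Emerald-negative DNA, which gave scores of 78.7 and 85.7. HoxB had 4675 HpaII and 2664 MspI tags in Emerald-high DNA, against 9953 HpaII and 2455 MspI tags in Emerald-negative DNA, with scores of 78.9 and 84.2. HoxC had 3689 HpaII and 2046 MspI tags in Emerald-high DNA, against 7841 HpaII and 1997 MspI tags in Emerald-negative DNA, with scores of 79.4 and 83.8. HoxD had 3513 HpaII and 1929.8 MspI tags in Emerald-high DNA, against 7754 HpaII and 1704 MspI tags in Emerald-negative DNA, with scores of 79.6 and 85.9. Over all other CCGG positions of the genome the score was 49.9 in Emerald-high DNA and 49.9 in Emerald-negative DNA. These positions hold nearly all tags, so scaling to library totals sets their score near 50 in both fractions. The clusters held 0.0965% of the CCGG positions but gave 0.297% of the HpaII tags of Emerald-high DNA and 0.382% of those of Emerald-negative DNA. Their share of MspI tags, which do not depend on methylation, was 0.101% in Emerald-high DNA and 0.092% in Emerald-negative DNA, near their share of positions. At least 1 HpaII tag was found at 90.4% of Hox positions in Emerald-high DNA and at 93.2% in Emerald-negative DNA, against 55.7% and 53.7% of the other positions; the Emerald-negative HpaII library was the deeper one.

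The high level ran on through most of each cluster rather than standing at single points. In consecutive bins of 10 kb with 20 or more tags in both MspI libraries, all 60 bins wholly inside the windows could be scored. Of these, 50 (83.3%) had a score over 70 in both fractions, against 11.4% of the 126046 other bins. The median bin score was 79.1 in Emerald-high DNA and 85.2 in Emerald-negative DNA, against 35.7 and 25.2 for the other bins. The other bins held fewer CCGG, with a median of 7 against 24.5 in Hox bins. A restriction to bins with at least 20 CCGG was added after seeing the data. With it, 40 of 42 Hox bins (95.2%) and 65.4% of 7635 others scored over 70 in both fractions. The gap between Hox and other bins was thus smaller among bins rich in CCGG. In HoxC the scores stayed over 70 in both fractions for 130 kb without a break (chr15:102740001-102870000, from 5 kb before the window). In HoxD they did so for 110 kb (chr2:74490001-74600000), in HoxB for 90 kb (chr11:96130001-96220000) and in HoxA for 80 kb (chr6:52140001-52220000). Among the 11677 runs of such bins in the genome, 83.4% of which were a single bin, the HoxC run was the longest and the HoxD run came next, while the HoxB run was as long as 1 on chromosome 19. The HoxA run was 1 of the 7 runs of at least 8 bins. This threshold was chosen with the data in view. At a score over 60 or over 65 the HoxC run was still the longest, while over 75 the HoxB and HoxC runs, at 90 kb each, had none longer. The length of the runs depended on the threshold. Over 60 the runs were 160 kb in HoxC, 140 kb in HoxB, 120 kb in HoxD and 90 kb in HoxA. Over 75 they were 90 kb in HoxC and HoxB, 70 kb in HoxD and 80 kb in HoxA.

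**Figure D1:**
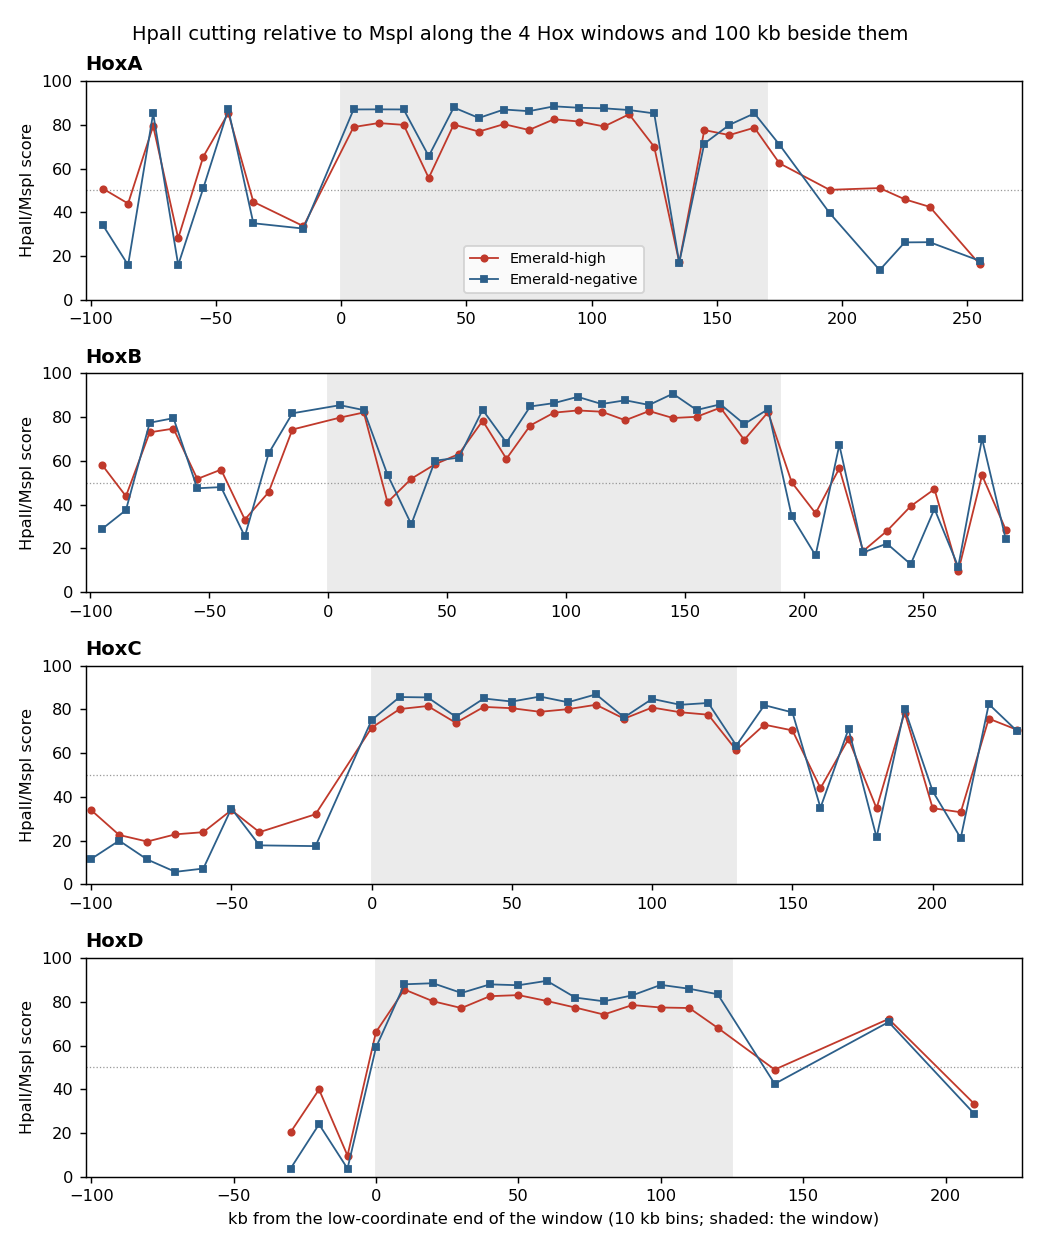
HpaII/MspI score (0 to 100, vertical) of 10 kb bins along each Hox window (shaded) and 100 kb to either side, against distance in kb from the window's low-coordinate end; circles are Emerald-high DNA, squares are Emerald-negative DNA, and bins under 20 MspI tags in either MspI library are left out and bridged by the lines. In HoxC and HoxD every bin wholly inside the window lies above 68 in both fractions, HoxA has 1 bin at 17.1 and 17.0, and HoxB has a dip between 20 and 60 kb.

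Inside the windows the high level was interrupted in a few places. The lowest bin was in HoxA (chr6:52230001-52240000), with 11 HpaII and 66 MspI tags in Emerald-high DNA and 14 HpaII and 50 MspI tags in Emerald-negative DNA, or scores of 17.1 and 17.0. It lay beyond the Hoxa13 promoter, on the side where the gene order places Evx1, a homeobox gene next to the cluster, and the bins from 52240001 to 52270000 were again at 75.3 to 78.7 in Emerald-high DNA and 71.4 to 85.2 in Emerald-negative DNA. A second low bin of HoxA (chr6:52130001-52140000) scored 55.7 in Emerald-high DNA and 65.7 in Emerald-negative DNA. HoxB had a dip over 4 bins (chr11:96070001-96110000), with scores of 41.1, 51.8, 58.5 and 63.1 in Emerald-high DNA, against 53.7, 31.02, 60.1 and 61.5 in Emerald-negative DNA in the same order. This dip followed the bins that hold the promoters of Gm30134, a transcript beside Hoxb13 in the gene order, and lay before the rest of HoxB; Hoxb13 is set apart from the other HoxB genes. The lowest HoxC bin (chr15:102770001-102780000) still scored 73.9 in Emerald-high DNA and 76.6 in Emerald-negative DNA, and the lowest HoxD bin by both fractions together (chr2:74560001-74570000) scored 74.2 and 80.2. The highest bins of the clusters were alike, at 82.5 and 88.4 in HoxA (chr6:52180001-52190000), 83.0 and 89.3 in HoxB (chr11:96150001-96160000), 82.1 and 86.9 in HoxC (chr15:102820001-102830000) and 85.6 and 88.0 in HoxD (chr2:74490001-74500000), each with Emerald-high DNA before Emerald-negative DNA.

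The level dropped at the cluster ends. Over the 580 CCGG positions within 100 kb of the windows, a comparison added after seeing the data, the score was 54.5 in Emerald-high DNA and 54.6 in Emerald-negative DNA. The 8 sides ranged from 37.9 (low-coordinate side of HoxC) to 63.7 (its high-coordinate side) in Emerald-high DNA, and from 31.8 to 67.2 on the same sides in Emerald-negative DNA. The drop was steep at HoxD, where the last bin in the window scored 68.1 and 83.4, while the next bin, with 2 CCGG positions and few tags, had 2 HpaII and 5 MspI tags in Emerald-high DNA and 1 HpaII and 8 MspI tags in Emerald-negative DNA. At the high-coordinate side of HoxC the last whole bin inside scored 77.6 in Emerald-high DNA and 83.0 in Emerald-negative DNA, the bin across the end 61.4 and 63.5, and the first whole bin outside was high again at 73.0 and 81.9.

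The clusters differed most from the rest of the genome at CCGG positions with few others near them. Positions were grouped by how many CCGG lay within 500 bp, the position itself included. Of the Hox positions, 7.54% were isolated (1 CCGG), 34.0% had 2 to 4, 35.9% had 5 to 9 and 22.6% had 10 or more, called dense here, as in CpG islands. Of the other positions, 37.6% were isolated, 44.0% had 2 to 4, 10.2% had 5 to 9 and 8.15% were dense. The 116 isolated Hox positions had 659 HpaII and 575 MspI tags in Emerald-high DNA and 1209 HpaII and 629 MspI tags in Emerald-negative DNA. Their scores were 69.1 and 68.8, against 39.6 and 30.1 for the other isolated positions. Hox positions with 2 to 4 CCGG scored 77.1 in Emerald-high DNA and 82.3 in Emerald-negative DNA, against 42.8 and 40.8 elsewhere. With 5 to 9 CCGG the scores were 80.5 and 86.6 in the clusters, against 74.5 and 80.9 elsewhere. At dense positions the clusters and the rest lay close together, at 82.5 in Emerald-high DNA and 89.3 in Emerald-negative DNA against 81.6 and 88.6. Within 100 kb of the windows, the scores of isolated, 2 to 4, 5 to 9 and dense positions were 43.4, 51.3, 77.0 and 81.6 in Emerald-high DNA, against 34.3, 51.5, 84.5 and 88.9 in Emerald-negative DNA. The neighbouring DNA thus lay well below the clusters at sparse CCGG and near them at 5 or more CCGG. The 95% intervals of the Hox scores and those of the other positions did not overlap in the first 3 classes in either fraction. At dense positions they did, though barely in Emerald-negative DNA. In Emerald-high DNA the Hox interval was 81.4 to 83.5, and the score of the other positions lay inside it. In Emerald-negative DNA the Hox interval was 88.66 to 89.99. The other positions, at 88.62 (88.58 to 88.67), lay just below it.

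**Figure D2:**
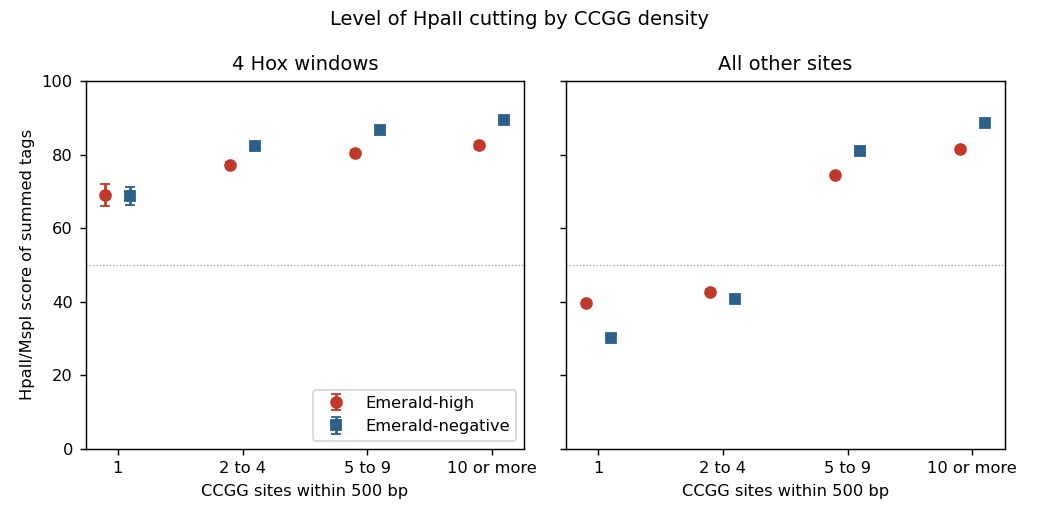
HpaII/MspI score (0 to 100) of summed tags by the number of CCGG within 500 bp, in the 4 Hox windows (left) and at all other CCGG positions (right), for Emerald-high DNA (circles) and Emerald-negative DNA (squares), with 95% counting intervals where they exceed the symbols. In the windows the score runs from 69.1 to 82.5 in Emerald-high DNA, while elsewhere it starts at 39.6 and reaches 81.6.

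Between the fractions, HpaII cutting relative to MspI was lower in Emerald-high DNA in every Hox window when tags were scaled to library totals, and higher in every window when they were scaled to the tags at dense positions. On the first scale the log2 HpaII/MspI difference was -0.61 in HoxA (95% interval -0.70 to -0.52), -0.45 in HoxB (-0.54 to -0.35), -0.36 in HoxC (-0.47 to -0.26) and -0.56 in HoxD (-0.67 to -0.45). At positions with 10 or more tags in both MspI libraries the HoxC value was -0.16, and its interval reached 0 (-0.34 to 0.02). Scaled to dense positions the difference was 0.11 in HoxA, 0.27 in HoxB, 0.36 in HoxC and 0.16 in HoxD. Part of the first set came from the MspI libraries, which do not read methylation. The HpaII libraries alone differed by -0.39, -0.34, -0.34 and -0.39 (log2) in HoxA, HoxB, HoxC and HoxD, and the MspI libraries by 0.23, 0.11, 0.03 and 0.17. The direction of change in a cluster as a whole was thus set by the scaling. The scaling cancels in a comparison with other positions of the same CCGG density, but the level of cutting is not matched there. At 2 to 4 CCGG the Hox scores were 77.1 and 82.3, against 42.8 and 40.8 elsewhere. Among 10 kb bins scoring 80 or more, described further on, Hox minus other was smaller, at -0.09 (-0.16 to -0.01).

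Set against other positions of equal density, the Hox clusters had a lower log2 HpaII/MspI difference at sparse CCGG, and at dense CCGG they could not be told from the rest. At isolated positions the log2 difference was 0.02 in the clusters (-0.20 to 0.23) and 0.48 elsewhere, so that Hox minus other was -0.47 (-0.68 to -0.26). At positions with 2 to 4 CCGG it was -0.40 in the clusters (-0.48 to -0.32) and 0.09 elsewhere, and Hox minus other was -0.49 (-0.57 to -0.41). At 5 to 9 CCGG, Hox minus other was -0.12 (-0.20 to -0.04), from -0.57 in the clusters and -0.46 elsewhere. At dense positions no difference from the rest was detectable, with -0.74 in the clusters and -0.72 elsewhere, and Hox minus other at -0.02 (-0.15 to 0.11). Within 100 kb of the windows the log2 difference was 0.44 at isolated positions (0.27 to 0.62), -0.0065 at 2 to 4 CCGG (-0.15 to 0.13), -0.61 at 5 to 9 (-0.87 to -0.34) and -0.76 at dense positions (-1.33 to -0.19). The neighbouring DNA was near the other positions at isolated CCGG, between them and the clusters at 2 to 4, and as low as the clusters at 5 to 9.

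All 4 clusters lay below the other positions at sparse CCGG, to differing degrees. With 2 to 4 CCGG, Hox minus other was -0.56 in HoxA (-0.71 to -0.41), -0.44 in HoxB (-0.59 to -0.30), -0.39 in HoxC (-0.55 to -0.24) and -0.60 in HoxD (-0.81 to -0.40), and no interval reached 0. At isolated positions it was -0.84 in HoxA (-1.22 to -0.46), -0.14 in HoxB (-0.55 to 0.28), -0.32 in HoxC (-0.70 to 0.06) and -0.60 in HoxD (-1.27 to 0.07), so that HoxA was the one cluster whose own interval lay below 0. Without HoxA the value for isolated positions was -0.29 (-0.55 to -0.04). The value at 5 to 9 CCGG also rested on HoxA: it was -0.05 (-0.15 to 0.05) without it.

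**Figure D3:**
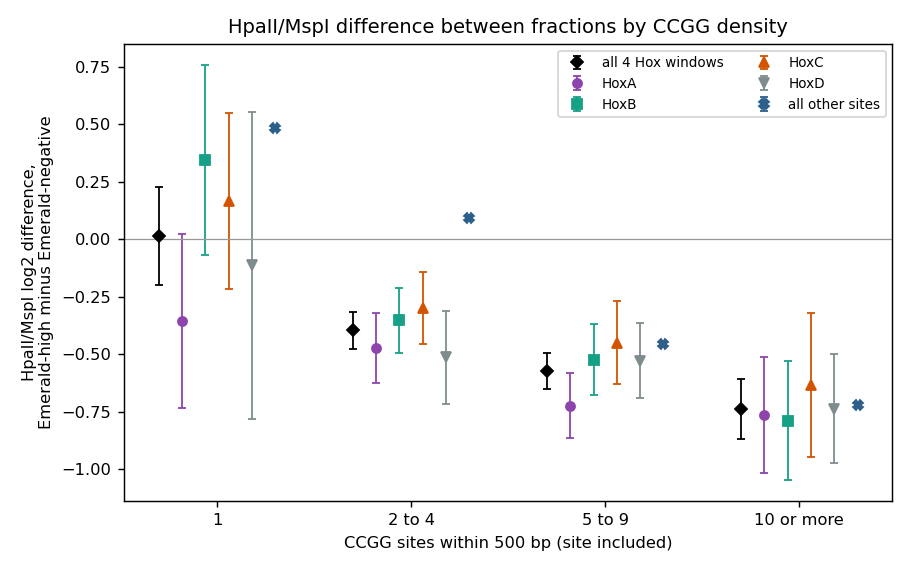
Log2 HpaII/MspI difference, Emerald-high minus Emerald-negative, on tags scaled to library totals, by the number of CCGG within 500 bp, for the 4 windows together, each window and all other positions; bars are 95% counting intervals, and scaling to dense positions would shift all points up together. The other positions run from 0.48 at isolated CCGG to -0.72 at dense CCGG, the windows together from 0.02 to -0.74.

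Bins were also compared within broad ranges of HpaII cutting. Hox and other 10 kb bins were sorted by the Emerald-negative score of one part of the tags, while the difference came from the remaining part, an analysis added after seeing the data. Among bins scoring 80 or more, the log2 difference was -0.53 in 48 Hox bins and -0.44 in 9854 others, and Hox minus other was -0.09 (-0.16 to -0.01). Among bins from 50 to 80 it was -0.29 in 9 Hox bins and -0.15 in the others, with Hox minus other at -0.14 (-0.38 to 0.11). The 3 Hox bins under 50 had -0.13, against 0.44 in 99127 other bins, with Hox minus other at -0.57 (-1.39 to 0.25). The ranges did not fully match the level, as Hox bins scored higher than the others in each. In Emerald-negative DNA the scores from the remaining part were 85.9 against 83.9 at 80 or more, 73.8 against 68.4 at 50 to 80, and 40.7 against 22.5 under 50. In Emerald-high DNA they were 79.9 against 78.6, 68.8 against 65.6, and 38.0 against 29.6.

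Bin by bin, 56 of the 60 Hox bins (93.3%) had the lower score in Emerald-high DNA on tags scaled to library totals, against 30.7% of the other bins. By a two-sided Fisher's exact test with Benjamini-Hochberg adjustment over 126106 bins, with calls at an adjusted p under 0.05 plus a 2-fold change, 3 Hox bins were lower in Emerald-high DNA (5%; background 0.379% of all tested bins) and 0 were higher (background 2.91%). By the adjusted p alone, 22 were lower (36.7%; background 1.5%) and 0 higher (background 2.97%), with 11 of 17 bins in HoxA, 4 of 19 in HoxB, 1 of 12 in HoxC and 6 of 12 in HoxD. An unadjusted p under 0.05 was reached by 35 of the 60, against 25918 of the 126046 other bins. When tags were divided by 1.21, the extra spread seen between both MspI libraries, 9 bins were lower by the adjusted p alone (background 0.584%). Scaled to dense positions, the adjusted p alone gave 0 lower (background 0.0285%) and 11 higher bins. That scale shifts all bins up together, and the share of all tested bins higher on it is not given. The 11 bins are therefore not a result about the Hox windows. Hox bins also held more tags than most, with a median of 277.5 HpaII tags in Emerald-high DNA and 615 in Emerald-negative DNA, against 18 and 20 in other bins. Among bins with at least 20 CCGG, a restriction added after seeing the data, 20 of 42 Hox bins (47.6%) and 16.7% of 7635 others were lower by the adjusted p alone, while 1 Hox bin (2.38%) and 2.17% of the others also passed the 2-fold limit.

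The called bins lay in 3 clusters. In HoxB (chr11:96190001-96200000) there were 191 HpaII and 105 MspI tags in Emerald-high DNA, against 432 HpaII and 62 MspI tags in Emerald-negative DNA, a log2 difference of -1.18 (-1.69 to -0.66, Fisher's exact test, adjusted p = 0.00186). In HoxA (chr6:52220001-52230000, the bin before the low one) there were 129 HpaII and 109 MspI tags in Emerald-high DNA, against 342 HpaII and 79 MspI tags in Emerald-negative DNA, with a difference of -1.11 (-1.62 to -0.60, Fisher's exact test, adjusted p = 0.00386). In HoxD (chr2:74600001-74610000, the last bin of the window) there were 98 HpaII and 89 MspI tags in Emerald-high DNA, against 273 HpaII and 71 MspI tags in Emerald-negative DNA, with a difference of -1.04 (-1.60 to -0.48, Fisher's exact test, adjusted p = 0.0179). The MspI libraries moved with these calls. They differed by 0.75 (log2) in the HoxB bin, more than the -0.43 of the HpaII libraries, by 0.45 in the HoxA bin against -0.65 for HpaII, and by 0.32 in the HoxD bin against -0.73. Their part in the calls was not tested. With tags so divided the HoxD bin was no longer called (Fisher's exact test, adjusted p = 0.0676), and scaled to dense positions none of the 3 was (adjusted p from 0.153 to 0.368).

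Runs of dense positions, no more than 500 bp apart, mark the island-like stretches of the clusters. The windows held 32 such runs, and 24 had 20 or more tags in both MspI libraries. The median score of these 24 was 82.7 in Emerald-high DNA and 88.9 in Emerald-negative DNA, against 82.3 and 89.1 for 5324 other runs. The scores spanned 76.2 to 91.3 in Emerald-high DNA and 86.0 to 93.1 in Emerald-negative DNA. Of the other runs, 1.84% were under 50 in at least 1 fraction. On the scale of library totals, 23 of 24 Hox runs (95.8%) and 95.4% of the others scored lower in Emerald-high DNA. The run with most positions was in HoxD (chr2:74519818-74521360, 24 CCGG), with 214 HpaII and 93 MspI tags in Emerald-high DNA and 467 HpaII and 82 MspI tags in Emerald-negative DNA, or 83.7 and 88.7. The HoxA run with most positions (chr6:52140941-52141951, 18 CCGG) scored 84.5 and 93.1, that of HoxB (chr11:96132769-96134181, 18 CCGG) 77.5 and 87.6, and that of HoxC (chr15:102751469-102752557, 16 CCGG) 81.9 and 87.5, with Emerald-high DNA first each time. The Hoxd10 and Hoxd9 promoters lay at least in part in runs of their own (chr2:74529558-74529968 and chr2:74535627-74536825), which scored 86.8 and 82.5 in Emerald-high DNA and 89.0 and 90.7 in Emerald-negative DNA.

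Promoters of 12 transcripts could be placed, 6 of them of Hox genes, and in each cluster their positions followed the RefSeq gene order. Of the 41 Hox and Evx genes in the gene table, 24 had a promoter sequence, and most of those held too few CCGG to be placed; 21.1% of the 32851 promoter sequences in the table held 3 or more CCGG. Placement by 3 CCGG and the use of genes other than Hox and Evx were added after seeing the data. Posterior genes made up 5 of the 6, with Hoxa13, Hoxd13, Hoxd12, Hoxd10 and Hoxd9, and Hoxa6 was the one central gene. No anterior gene (paralogs 1 to 4) was placed. The Hoxd9 to Hoxd13 genes pattern the limb and the hind end of the body, and Hoxa13 acts in the digits and the urogenital tract.

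On library totals, all 12 placed promoters scored over 50 in both fractions. At the Hoxd10 promoter (CCGG at chr2:74529700-74529968) there were 42 HpaII and 16 MspI tags in Emerald-high DNA, against 67 HpaII and 19 MspI tags in Emerald-negative DNA, or 85.6 and 82.0. Of its 10 CCGG in the whole 300-base sequence, 3 had no tag in any library, and those 3 lie within 31 bases of one another. The last CCGG, at 74529968, held 21 HpaII tags in Emerald-high DNA and 28 in Emerald-negative DNA. Tag recovery was thus uneven inside a single promoter. At the Hoxa13 promoter (chr6:52210848-52210954) there were 23 HpaII and 4 MspI tags in Emerald-high DNA, against 32 HpaII and 10 MspI tags in Emerald-negative DNA, and at that of Hoxb3os (chr11:96214697-96214829) 51 HpaII and 17 MspI tags against 90 HpaII and 19 MspI tags. The scores were 93.3 and 80.3 for Hoxa13 and 87.3 and 86.4 for Hoxb3os.

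Hoxd12 (chr2:74512863-74513093) and Hoxa11os were the placed promoters with 20 or more tags in both MspI libraries, and Hoxd12 had the lowest score of the 12 in Emerald-high DNA. Hoxd12 had 46 HpaII and 45 MspI tags in Emerald-high DNA, against 118 HpaII and 32 MspI tags in Emerald-negative DNA, with scores of 66.0 and 82.7. At each of its 3 CCGG the HpaII/MspI ratio on library totals was lower in Emerald-high DNA. Its log2 difference was -1.09 (-1.91 to -0.27), and the MspI libraries differed by 0.48. Hoxd9 (chr2:74535627-74535856) had 56 HpaII and 24 MspI tags in Emerald-high DNA, against 126 HpaII and 12 MspI tags in Emerald-negative DNA, with a log2 difference of -1.41 (-2.51 to -0.31) of which the MspI libraries made up 0.99. Hoxa6 (chr6:52158785-52158866) had 20 HpaII and 12 MspI tags in Emerald-high DNA, against 59 HpaII and 9 MspI tags in Emerald-negative DNA, and Hoxd13 (chr2:74506062-74506090) had 5 HpaII and 3 MspI tags against 27 HpaII and 5 MspI tags. Hoxa11os, a noncoding antisense gene beside Hoxa11, had 68 HpaII and 24 MspI tags in Emerald-high DNA, against 138 HpaII and 25 MspI tags in Emerald-negative DNA. Gm38462, a transcript placed within HoxD, had 30 HpaII and 19 MspI tags in Emerald-high DNA, against 80 HpaII and 11 MspI tags in Emerald-negative DNA, at the promoter with CCGG at chr2:74550124-74550341. Its log2 difference was -1.44 (-2.67 to -0.21), and the MspI libraries differed by 0.78. Of the 12 promoters, Hoxd12, Hoxd9 and this one had intervals below 0 on library totals. On the same scale, positions outside the clusters stood at -0.46 with 5 to 9 CCGG and at -0.72 when dense. All 3 intervals include both values, so these promoters could not be told from other positions of such density. The intervals of the other 9, namely Hoxd10, Hoxa13, Hoxb3os, Hoxa6, Hoxd13, Hoxa11os, a second Gm38462 promoter and both of Gm30134, included 0. Except for Hoxa13, they also included both outside values, so these promoters could not be told from such positions either. Hoxa13 had a log2 difference of 1.61 (-0.24 to 3.45), above both outside values. It rested on 4 MspI tags in Emerald-high DNA and 10 in Emerald-negative DNA, and the MspI libraries differed there by -1.33.

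**Figure D4:**
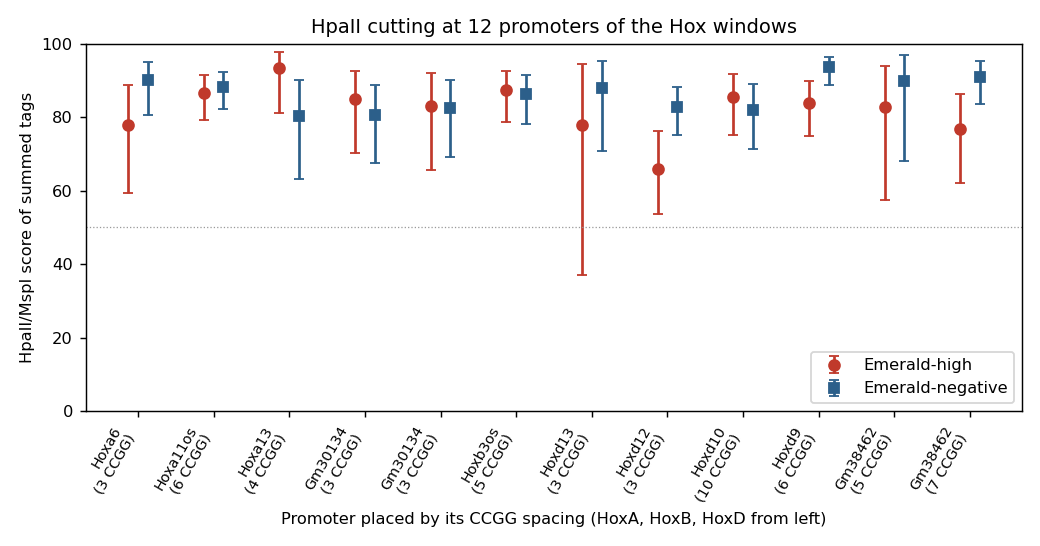
HpaII/MspI score (0 to 100) of the summed tags at 12 promoters placed in HoxA, HoxB and HoxD, in chromosome order, for Emerald-high DNA (circles) and Emerald-negative DNA (squares) with 95% counting intervals. Every point lies above 50, and the Emerald-high value of Hoxd12 (66.0) is the lowest.

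At single CCGG positions the level was high in most places and low in a few. Of the 1539 Hox positions, 199 had 10 or more tags in both MspI libraries. Their median score was 77.0 in Emerald-high DNA and 82.8 in Emerald-negative DNA, against 26.7 and 14.4 at 218498 other positions. A score over 50 was found at 88.4% of them in Emerald-high DNA and at 87.9% in Emerald-negative DNA, against 24.95% and 19.6% of the others. A score under 20 was found at 6 positions (3.02%) in Emerald-high DNA and 7 (3.52%) in Emerald-negative DNA, against 39.6% and 57.7% of the others. Of the 15 isolated positions among them, 2 were under 20 in Emerald-high DNA and 3 in Emerald-negative DNA, while 7 and 9 were over 50. Their medians were 46.8 and 59.0, below the 69.1 and 68.8 from summed tags of all 116 isolated Hox positions. Other isolated positions with such coverage had medians of 26.7 and 13.1. With 2 to 4 CCGG, 4 of 88 were under 20 in each fraction. None of the 80 positions with 5 to 9 CCGG was under 20 in either fraction, which allows a share of up to 3.75%, nor was any of the 16 dense positions, which allows up to 18.8%. By the same test over 218697 positions, 0 Hox positions were higher in Emerald-high DNA (background 0.102%) and 0 lower (background 0.0297%). By the adjusted p alone there were also 0 higher (background 0.106%) and 0 lower (background 0.0576%). An unadjusted p under 0.05 was reached by 16 of the 199, against 18938 of the 218498 other positions. On simulated counts this test found 3% of single positions raised 4-fold, with the raised positions drawn at random from all 218697. Little could thus be detected at a typical position, and power at the Hox positions themselves was not measured.

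The low positions were scattered and had few CCGG around them. The position chr2:74560008 in HoxD had no HpaII tag in either fraction, with 14 MspI tags in Emerald-high DNA and 10 in Emerald-negative DNA. In HoxC, 3 low positions lay within 1 kb, at chr15:102776007, 102776659 and 102776710, inside the lowest bin of that cluster. The last of them had 2 HpaII and 12 MspI tags in Emerald-high DNA and 1 HpaII and 22 MspI tags in Emerald-negative DNA. In HoxA, the isolated position chr6:52173547 had 0 HpaII and 15 MspI tags in Emerald-high DNA and 4 HpaII and 11 MspI tags in Emerald-negative DNA, in the midst of the 80 kb run of high bins.

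Among the Hox positions with most MspI tags, chosen by a rule that does not use HpaII, levels ranged widely. In HoxC, chr15:102817910 had 131 HpaII and 33 MspI tags in Emerald-high DNA and 178 HpaII and 43 MspI tags in Emerald-negative DNA, or 90.4 and 84.6. In HoxB, chr11:96127442 had 11 HpaII and 28 MspI tags in Emerald-high DNA and 17 HpaII and 32 MspI tags in Emerald-negative DNA, or 36.7 and 30.5. In HoxD, chr2:74514451 had 18 HpaII and 43 MspI tags in Emerald-high DNA, against 55 HpaII and 24 MspI tags in Emerald-negative DNA, or 38.6 and 73.2; the difference did not pass the adjustment (Fisher's exact test, adjusted p = 0.212). The other 5 positions scored 71.0 to 85.9 in Emerald-high DNA and 83.9 to 88.6 in Emerald-negative DNA.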

How the data were processed

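The deposited files give, for each CCGG position, expected counts of HELP tags in 2 parts and their sum, not scaled to depth, per the file headers; 14 Hox positions hold fractions of a tag. The genome build is mm9, per the submitters' processing notes. What the parts mean, which aligner was used and how tags with several matches were handled is not given in the sources. The sum was used, rounded to whole tags in tests. Positions are as the files give them.

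Tags were scaled to library totals. Features with 20 (10 kb bins) or 10 (positions) tags or more in both MspI libraries were tested by a two-sided Fisher's exact test whose null odds ratio follows from the totals. Calls were made at p under 0.05 after Benjamini-Hochberg adjustment together with a 2-fold change at a pseudocount of 1. Intervals for log2 ratios and scores are 95% Poisson intervals. The test matched that of R 4.3.3 in 200 of 200 tables. A simulation of this comparison placed increases at random among all tested features. Among 126106 bins, 11% of 100 raised 2-fold and 58% of 100 raised 4-fold passed the adjusted p. Among 218697 positions, 0% and 3% did. Decreases were not simulated, and power in the Hox windows alone was not measured.

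Named were the called bins, the highest and lowest bin, the run of dense positions with most CCGG and the 2 positions with most MspI tags of each window, and placed promoters. Promoters were placed where the spacing of at least 4 CCGG occurred once in the genome, or of 3 once on the chromosome. The low positions and further low bins described were chosen after their values were seen. Members and lists were chosen with earlier results of these data known. Alternatives were scaling to dense positions or autosomes, HpaII alone, site filters, tag parts, density distance, trimmed windows, bin size, minima, pseudocount, an MspI overdispersion factor of 1.21, and thinning. Scripts ran in Python 3.11.15 with scipy 1.17.1, pandas 2.3.3, numpy 2.4.6, matplotlib 3.10.9 and numba 0.67.0.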

Additional observations from a re-analysis of the deposited data

How the results depend on the processing

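Scaling decided the direction of several values. Scaled to the tags at dense positions, the log2 difference turned to 0.11 in HoxA, 0.27 in HoxB, 0.36 in HoxC and 0.16 in HoxD, and to 0.32 at positions with 2 to 4 CCGG and 0.15 at 5 to 9. It moved to 0.74 at isolated and -0.018 at dense positions. Scores at isolated, 2 to 4, 5 to 9 and dense positions became 32.7, 42.6, 48.0 and 51.7 in Emerald-high DNA and 20.8, 35.9, 44.8 and 52.1 in Emerald-negative DNA. On that scale 2 bins were higher and 0 lower with the 2-fold limit, 11 higher and 0 lower by the adjusted p alone, and 2 positions higher. The shares of all tested bins and positions higher on that scale are not given, so these counts are not a result about the Hox windows. Hox minus other does not depend on scaling.

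With HpaII libraries alone, HoxA, HoxB and HoxD stood at -0.39, -0.34 and -0.39, and the classes of 2 to 4, 5 to 9 and dense at -0.31, -0.38 and -0.46. With positions of 10 or more tags in both MspI libraries, the 4 clusters stood at -0.34, -0.28, -0.16 and -0.39 (HoxA to HoxD), the HoxC interval reaching 0 (-0.34 to 0.02), and the classes from isolated to dense at -0.22, -0.18, -0.41 and -0.36. Hox minus other was then -0.75 at isolated, -0.39 at 2 to 4 and 0.13 at dense positions. Scores there were 64.3 (isolated) and 79.3 (5 to 9) in Emerald-high DNA, and 78.9, 84.2 and 86.2 (2 to 4, 5 to 9 and dense) in Emerald-negative DNA.

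Counting CCGG within 250 bp gave -0.49 at 2 to 4 and -1.16 at dense positions, and Hox minus other of -0.39 at 2 to 4, -0.011 at 5 to 9 and -0.31 at dense positions. Scores from isolated to 5 to 9 were then 72.4, 79.2 and 81.8 in Emerald-high DNA, and from isolated to dense 75.4, 84.9, 88.0 and 91.9 in Emerald-negative DNA. Within 1000 bp the differences were -0.27 at 2 to 4 and -0.43 at 5 to 9, and scores from isolated to dense were 62.4, 74.7, 79.0 and 81.2 in Emerald-high DNA and 61.9, 78.7, 84.2 and 87.9 in Emerald-negative DNA. With the 2-fold limit, 5 kb bins gave 5 lower and 20 kb bins 1 lower. Dividing tags by the overdispersion factor left 9 lower by the adjusted p alone (background 0.584%) and 2 of the 3 with the 2-fold limit. The shares of all tested bins called with the 2-fold limit at these settings are not given. The counts with that limit are therefore not a result about the Hox windows. The cause of these shifts was not tested.

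In all, 166 of the recomputed values stayed within their limits, 64 moved and 6 turned direction, the last 6 all under scaling to dense positions. Hox minus other at 2 to 4 CCGG stayed between -0.53 and -0.39 under all 13 alternatives, and at isolated positions between -0.75 and -0.29. Scaling to dense positions is among these alternatives and cannot change Hox minus other. Its values under that scaling are also counted among the 166. No paired analysis was possible because each fraction and enzyme had 1 library and the labels give no replicate numbers. Depth limits single positions and promoters most.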
